A study of Saccharomyces cerevisiae with 14 samples.

Results

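The genes described here are the mating-type cassettes of budding yeast and the HO gene: HMLALPHA1 and HMLALPHA2 at HML, MATALPHA1 and MATALPHA2 at MAT, HMRA1 and HMRA2 at HMR, and HO. They were taken by name and are 7 of the 6431 nuclear genes in the RefSeq table of the R64 assembly. The HML, MAT and HMR genes lie on chromosome III and HO on chromosome IV. Each of the 14 libraries gave a list of peaks of Rad52, a recombination protein, from chromatin immunoprecipitation with a RAD52 antibody and sequencing.

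The Gal-HO galactose group has 2 libraries and the Gal-HO dextrose group has 1, all from the same JKM strain background and genotype with 2% galactose or with dextrose, and their labels name no auxin. Gal-HO names an HO gene under a galactose-driven promoter. The auxin groups carry the strain label 288C and received 0.5 µM auxin for 4 h, wild type included. They are h1D-h2D Sen1-AID (2 libraries) and h1D-h2D Top1-AID (2), here called the combined mutants, and Sen1-AID (2), Top1-AID (1), h1D-h2D (2) and WT (2). AID marks a protein with an auxin-inducible degron, and h1D-h2D was read as loss of the RNase H genes RNH1 and RNH201. The labels give neither the mating type of any strain nor the time in galactose. They do not say whether HML and HMR are present in the JKM strain, and several JKM strains in wide use lack both. Nothing says that replicates were separate cultures, so p-values measure the spread between these libraries only.

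The lists held 254 to 731 nuclear peaks, which covered 511 to 1904 kb. Read depth is unknown. In these bulk lists, fewer cells with bound Rad52 and less Rad52 per cell cannot be told apart. The galactose genes follow the galactose label: GAL1, GAL10 and GAL7 were covered over 100% of their length in both Gal-HO galactose libraries. In the Gal-HO dextrose library they were covered over 15.3%, 14.6% and 0%, and none had a peak over it in any of the 11 auxin libraries.

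As background, mating type in budding yeast is set by the genes at MAT. The alpha form encodes alpha1, an activator of alpha-specific genes, and alpha2, a repressor of a-specific genes. The a form encodes a1, which acts with alpha2 in diploids, and a2, which has no known function. HML and HMR carry silent copies of the alpha and a genes, kept off by the Sir proteins. HO is an endonuclease that cuts MAT, and a silent cassette then serves as the template for repair by recombination, in which Rad52 acts. The 3 loci share long stretches of sequence, and the alpha genes at HML and MAT are copies of each other. Reads from shared sequence can belong to any copy, and how the authors placed such reads is not given in the sources used here. So a peak at 1 cassette and signal from another copy cannot be told apart. In the same way, reads from the coding part of a Gal-HO construct and from the HO gene at its own place cannot be told apart. The reference holds the alpha form at MAT.

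With galactose, Rad52 peaks lay over both genes of HML, over HMRA2 and over HO, and no peak lay over MAT. Of the 7 genes, 4 were covered over their whole length in both Gal-HO galactose libraries and in none of the other 12: HMLALPHA1, HMLALPHA2, HMRA2 and HO. Over all nuclear genes this held for 0.327%, or 21 genes, and for 0.622% when only the Gal-HO dextrose library was the comparison. The measure was chosen after the values were seen, and both HML genes lie under a single peak in each galactose library. The cassettes share sequence, so HMRA2 and the HML genes may not be separate cases. Leaving out either galactose library cannot lower the count against dextrose, which stayed at 4. The count was 3, without HMRA2, under either of 2 stricter limits. These kept the peaks at or above the median score of all lists, or the 254 best-scoring peaks of each list (lists of equal length). A peak of any extent in both galactose libraries and not in dextrose was found for 4 of the 7 genes, the pairs at HML and HMR, against 1.24% of all genes. The HML pair alone had such a peak in none of the other 12, against 0.358% of all genes. MATALPHA1 and MATALPHA2 had no peak over them in any of the 14 libraries, as was the case for 56.9% of all genes.

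**Figure D1:**
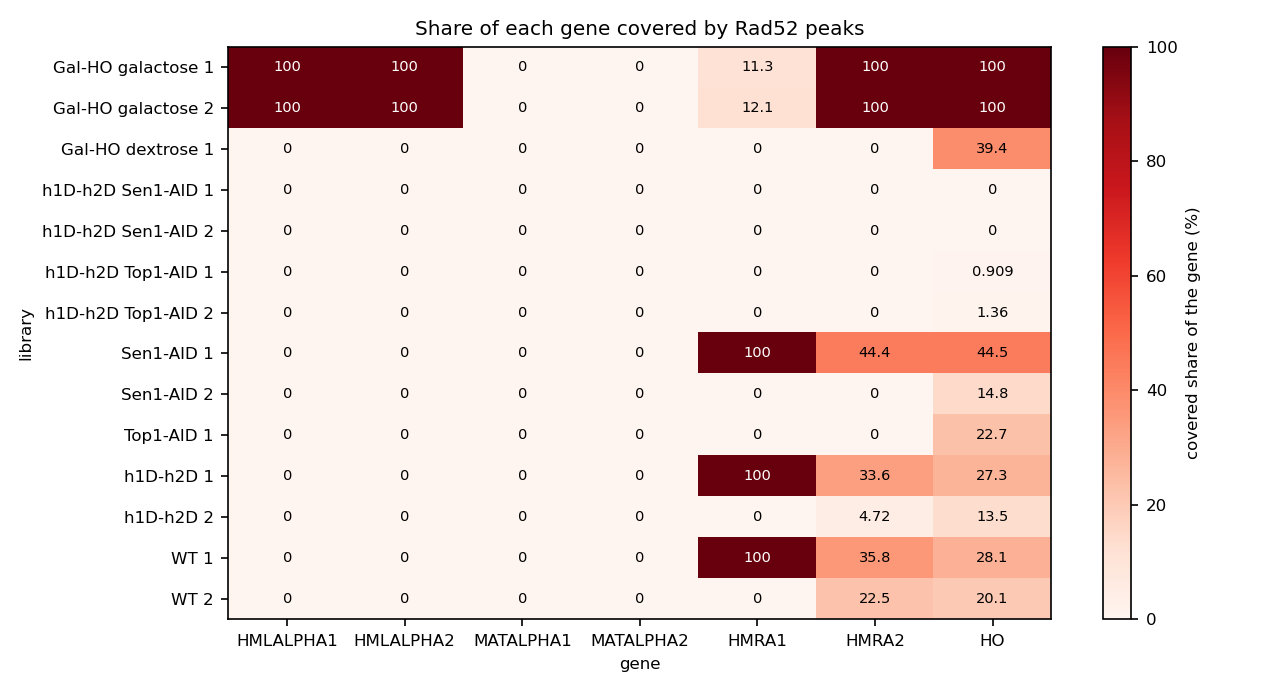
The share of each gene covered by Rad52 peaks, in percent, with 1 row for each library and 1 column for each gene; darker red is a larger share. HMLALPHA1, HMLALPHA2, HMRA2 and HO are at 100% in both Gal-HO galactose libraries, and both MAT genes are at 0% throughout.

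At HML the 2 genes lie back to back, HMLALPHA2 (YCL067C) at III 12386–13018 and HMLALPHA1 (YCL066W) at III 13282–13809. In Gal-HO galactose replicate 1 a peak of 2609 bp (III 11465–14073) covered both, and in replicate 2 a peak of 2376 bp (III 11689–14064) did. The right edges of these peaks lay 9 bp apart and the left edges 224 bp apart. The peak reached the neighbouring gene YCL068C as well, over 100% and 76.2% of its length. In the other 12 libraries both HML genes were covered over 0%.

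The HML peak was among the highest-scoring of each galactose list. The score is the authors' value for each peak, has no stated scale, and served only to rank peaks within a list. In replicate 1 the HML peak shared the top rank of 544 peaks with the HO peak, both at a score of 3100.00. No other list had 2 peaks at its highest score, and whether 3100.00 is a ceiling of the score is not given in the sources used here. In replicate 2 it ranked 18 of 637, at the 97.3rd percentile. Both HML genes were at full cover in each galactose library taken alone.

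Outside galactose the nearest peaks stood off from the HML genes. In Gal-HO dextrose the nearest peak to HMLALPHA1 was 11.8 kb to its left, at the end of the chromosome. Sen1-AID replicate 1 and WT replicate 1 had a peak 225 and 238 bp to its right (III 14034–15216 and III 14047–15244), at the 14.2nd and 10.2nd percentiles of their lists. No gene of the table lies under those peaks. Their replicates, Sen1-AID replicate 2 and WT replicate 2, had their nearest peaks 15.6 and 11.9 kb away. In the other auxin libraries the distance was between 11.8 and 68.3 kb, the highest in h1D-h2D Top1-AID replicate 2.

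Covered length within 10 kb of the midpoint of HMLALPHA1 was 2.61 and 4.56 kb in the Gal-HO galactose libraries. It was 0 kb in Gal-HO dextrose, and it ranged from 0 to 1.20 kb with a median of 0 kb over all 12 libraries without galactose. Both galactose libraries lay above all 12 others, by 3.38 kb on average (3.58 ± 1.38 kb, SD, n = 2, against 0.198 ± 0.463 kb, n = 12; two-sided exact permutation p = 0.022). That p is the smallest that 91 arrangements can give. Adjusted by Benjamini and Hochberg over all 6431 genes it was 0.699 (exact permutation), and no gene passed in this scan. Of all genes, 4.77% had an unadjusted p under 0.05 with higher values in galactose, and 3 of the 7 genes did: both at HML, whose windows nearly coincide, and HO. Lower values at that p were found for 0.964% of all genes and for 0 of the 7. Without either galactose library, 1 against 12, the smallest p possible is 0.154 and 0 genes pass. Within 25 kb of HMLALPHA1 the difference was 1.98 kb (exact permutation p = 0.374). Strain and treatment cannot be told apart in these tests, since the 11 auxin libraries come from other strains; against Gal-HO dextrose alone, 2 libraries against 1, an exact permutation test cannot give a p below 0.667.

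**Figure D2:**
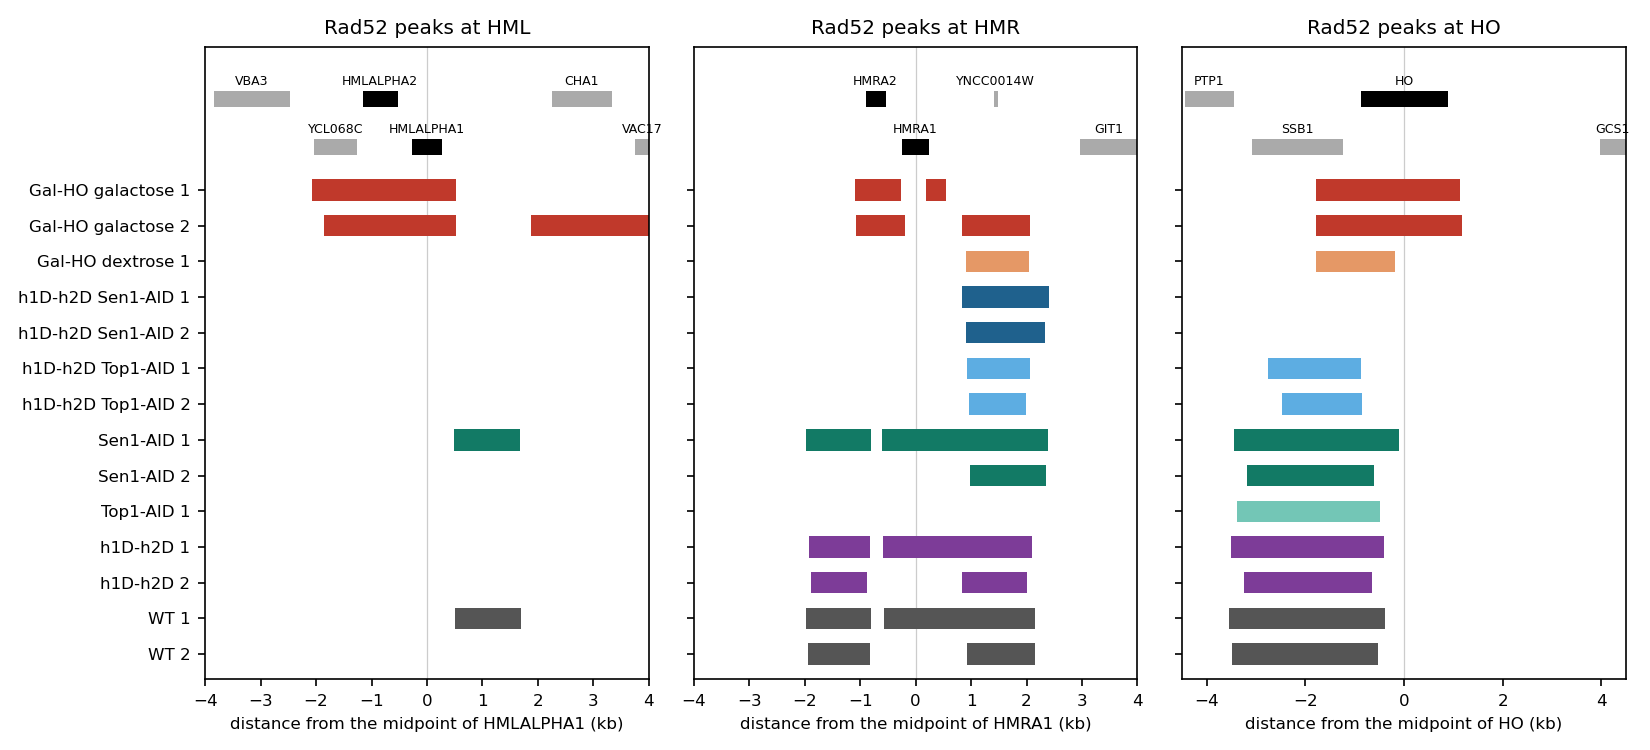
Rad52 peaks (bars) in each library around HML, HMR and HO, drawn as distance in kb from the midpoint of HMLALPHA1, HMRA1 and HO, with genes on top (black for the genes described, grey for neighbours). The galactose peaks cover both HML genes, HMRA2 and HO, and 10 of the other 12 libraries have a peak over part of HO. At HML a peak lies within 10 kb in 2 of the other 12, and none covers an HML gene.

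At HMR the galactose peaks lay over HMRA2 and left most of HMRA1 bare. HMRA2 (YCR096C, III 293179–293538) was covered over 100% in both Gal-HO galactose libraries, and over 0% in Gal-HO dextrose. HMRA1 (YCR097W, III 293835–294321) was covered over 11.3% and 12.1% in galactose, and over 0% in dextrose. The peaks over HMRA2 were short, 826 bp (III 292992–293817) and 898 bp (III 292996–293893), with left edges 4 bp apart. Replicate 1 had another peak of 364 bp at III 294267–294630, over the 3′ end of HMRA1. Between these peaks was a gap of 449 bp that held 432 bp of HMRA1. Signal in sequence that HMR shares with HML and MAT cannot be told apart from theirs. Which parts of HMR are shared was not examined, as no genome sequence was used.

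The galactose replicates differed in rank at HMR. The peak over HMRA2 ranked 4 of 544 in replicate 1, at the 99.4th percentile. In replicate 2 it ranked 556 of 637, at the 12.9th percentile. With only peaks at or above the median score of all lists, the difference in the covered share of HMRA2 was 46.7 percentage points (exact permutation p = 0.286). With peaks under 1 kb apart joined it was 72.7 percentage points (exact permutation p = 0.22).

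At HMR the cover was the other way round in 3 auxin libraries. In Sen1-AID replicate 1, h1D-h2D replicate 1 and WT replicate 1, a peak of 2985, 2682 and 2729 bp covered 100% of HMRA1. Each of these peaks also lay over the tRNA gene YNCC0014W, to the right of HMR. In the same libraries HMRA2 was covered over 44.4%, 33.6% and 35.8%. Part of that cover came from a separate peak on the left, at percentiles 21.2, 1.26 and 10.7. In the matching replicates 2, HMRA1 was covered over 0%. There HMRA2 was at 0% in Sen1-AID, 4.72% in h1D-h2D and 22.5% in WT. Neither gene was covered in the combined mutants or in Top1-AID. The 3 lists with all of HMRA1 covered held the most covered sequence of the 14, with 1904, 1504 and 1660 kb. Their replicates 2 held 763, 1101 and 1294 kb. Whether cover at HMR follows the size of a list was not tested.

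For the gene itself, the covered share of HMRA2 was 100 ± 0% in galactose (SD, n = 2) and 11.8 ± 17.2% in the other 12. The difference was 88.2 percentage points (exact permutation p = 0.022, adjusted 1 over all genes). Both HML genes and HO also had p = 0.022 by this exact permutation test, which was not among those planned. So 4 of the 7 genes did, but both HML genes lie under a single peak in each galactose library. HMRA2 may not be a separate case either, since the cassettes share sequence. Of all genes, 1.12% had higher values in galactose at an unadjusted p under 0.05. Lower values were found for 0.187% of all genes and for 0 of the 7. For HMRA1 the difference was -13.3 percentage points (11.7 ± 0.581% against 25 ± 45.2%, exact permutation p = 0.813), and with peaks under 1 kb apart joined it turned to 31.1 percentage points. Within 10 kb of HMRA1, covered length was 1.66 ± 0.66 kb in galactose and 2.2 ± 1.41 kb in the other 12 (exact permutation p = 0.659).

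Much of the cover near HMR lay to its right, over the tRNA gene YNCC0014W (III 295484–295556). As background, a tRNA gene on that side of HMR is known as the barrier where HMR silencing ends. YNCC0014W was covered in 12 of the 14 libraries, and it was bare in Gal-HO galactose replicate 1 and in Top1-AID. In all 4 combined-mutant libraries the peak over it was the nearest one to HMRA1, between 0.599 and 0.712 kb away. In Top1-AID the nearest peak to HMRA1 was 64.4 kb away, farther than that of nearly all genes, since 99.2% of genes had theirs at or nearer than this.

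HO (YDL227C, IV 46271–48031, on the reverse strand) was covered over 100% in both Gal-HO galactose libraries. In Gal-HO dextrose it was covered over 39.4%, from its 3′ end inward. The galactose peaks ran from IV 45362 to 48283 and from IV 45359 to 48332, so they ended 252 and 301 bp past the 5′ end of the gene. The dextrose peak began at the same base as that of galactose replicate 2, IV 45359, and ended at IV 46963, inside HO. The HO peak had the top rank in both galactose lists, shared with HML in replicate 1, and it ranked 117 of 637 in dextrose, at the 81.8th percentile.

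In most auxin libraries the peak at this place lay over SSB1 (YDL229W, IV 44065–45906), which encodes a ribosome-associated Hsp70 chaperone and ends shortly before the 3′ end of HO. SSB1 was covered over 29.6% and 29.8% in Gal-HO galactose and 29.8% in Gal-HO dextrose. It was covered over 0% in both libraries of h1D-h2D Sen1-AID, over 82.4% and 66.6% in h1D-h2D Top1-AID, and over 100% in all 7 libraries of Sen1-AID, Top1-AID, h1D-h2D and WT. So the 3 Gal-HO libraries lacked the left part of the peak in both media. HO itself was covered over 44.5% and 14.8% in Sen1-AID, 22.7% in Top1-AID, 27.3% and 13.5% in h1D-h2D, and 28.1% and 20.1% in WT. Each of these peaks spanned SSB1 and the 3′ part of HO, and none reached the 5′ end.

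Covered length within 10 kb of HO was 5.05 and 6.64 kb in the Gal-HO galactose libraries, and 4.68 kb in Gal-HO dextrose. Over all 12 libraries without galactose it ranged from 0 to 4.68 kb, with a median of 2.75 kb. The galactose libraries lay above all others (5.84 ± 1.12 kb, SD, n = 2, against 2.4 ± 1.36 kb, n = 12), a difference of 3.44 kb (exact permutation p = 0.022, adjusted 0.699 over all genes). With lists of equal length the difference was 2.63 kb (exact permutation p = 0.11), and within 5 kb it was 0.8 kb (exact permutation p = 0.418). Part of the sum came from BRE4, to the left of SSB1, which was covered over 62.9% and 84.4% in galactose and 66% in dextrose. BRE4 had a peak over it in none of the 11 auxin libraries. Of all genes, 1.54% had a peak in all 3 Gal-HO libraries and in no auxin library, and neither HO nor any cassette gene was among them. So the Gal-HO lists and the auxin lists differ at genes other than those described. Strain and auxin cannot be told apart there.

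**Figure D3:**
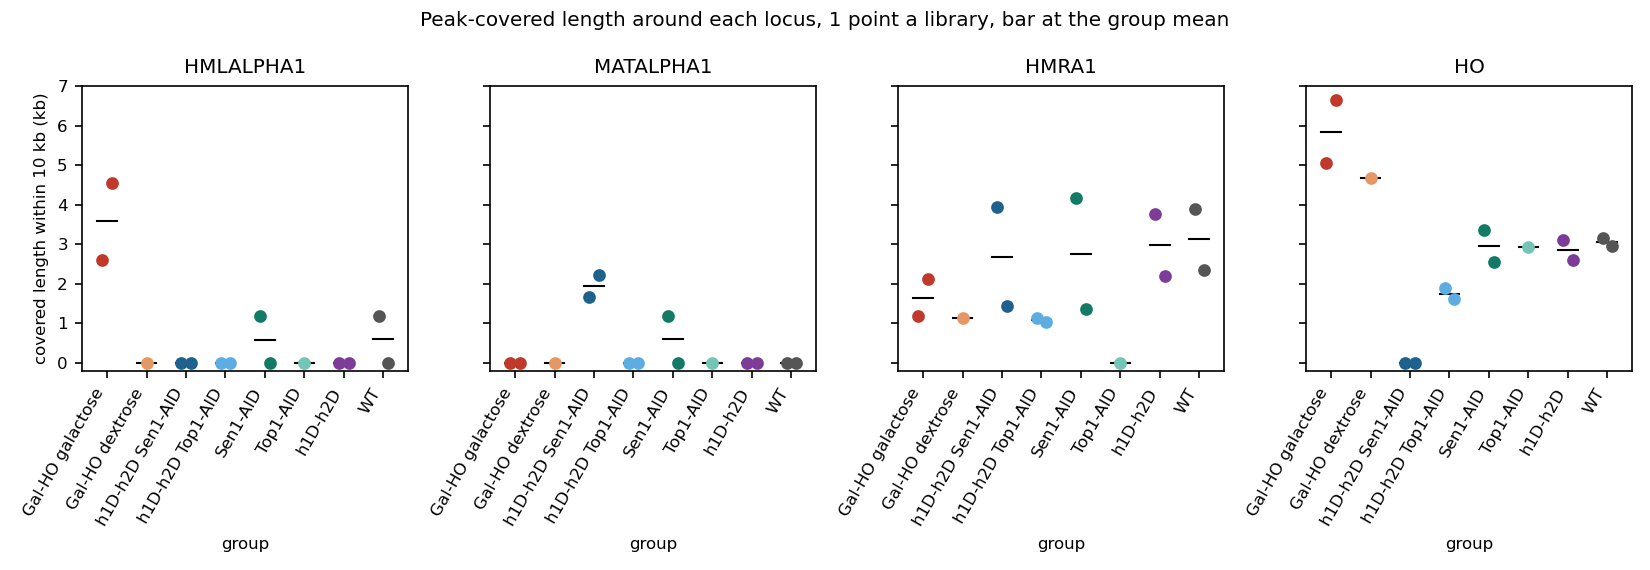
Covered length in kb within 10 kb of the midpoints of HMLALPHA1, MATALPHA1, HMRA1 and HO, with 1 point for each library and a bar at each group mean. The galactose points are the highest for HMLALPHA1 and HO, are at 0 kb for MATALPHA1, and lie among the others for HMRA1.

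MAT, the locus that HO cuts, had no peak close by in galactose. MATALPHA2 (YCR039C) lies at III 199546–200178 and MATALPHA1 (YCR040W) at III 200442–200969. The nearest peak to MATALPHA1 was 14.4 and 16 kb to the right in the Gal-HO galactose libraries, and 21.3 kb to the left in Gal-HO dextrose. In these 3 libraries, 82.4%, 89% and 92.3% of all genes had a peak at or nearer than that, so other genes stood as far from a peak. Within 10 kb of MATALPHA1 no base was covered in any of the 3 Gal-HO libraries. Among all genes, 8.51% had no peak within 10 kb in any of the 14 libraries. MATALPHA1 was not one of them, since 3 auxin libraries had a peak there. A peak list cannot show signal below the caller's threshold, so a lower level of Rad52 at MAT was not detectable here. In the sequence that MAT shares with HML and HMR, signal from these copies cannot be told apart, and how reads were placed is not given. So the lack of a peak over MAT does not show that Rad52 was absent there.

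The galactose peaks nearest to MAT lay over THR4, which encodes threonine synthase, and CTR86. They spanned 5845 bp (III 215326–221170) in replicate 1 and 2538 bp (III 216967–219504) in replicate 2, and they ranked low, at percentiles 1.29 and 6.75. Gal-HO dextrose had no peak over THR4 or CTR86. WT replicate 1 had one (III 216378–218664, percentile 7.66), and it was the only auxin library that did. The other peaks within 50 kb stood at genes that carry peaks in most libraries. The peak over the snoRNA gene SNR65 and that over the tRNA gene SUP61 were each present in all 14. The peak over RHB1 was present in 12 and that over PMP1 in 11.

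Within 50 kb of MATALPHA1, covered length was 15.2 and 13.1 kb in the Gal-HO galactose libraries, and 9.36 kb in Gal-HO dextrose. Over all 12 libraries without galactose it lay between 4.75 and 15 kb, with a median of 8.97 kb and the highest value in WT replicate 1. Galactose exceeded dextrose by 4.75 kb, a comparison in which the smallest exact permutation p is 0.667. Against all 12 others the means were 14.1 ± 1.48 kb (SD, n = 2) and 8.96 ± 3 kb (n = 12), a difference of 5.15 kb (exact permutation p = 0.0879). With peaks at or above the median score it was 0.396 kb (exact permutation p = 0.901). Within 25 kb the difference was 3.96 kb (exact permutation p = 0.044). With lists of equal length the direction turned, to -1.16 kb (exact permutation p = 0.418). So the difference did not pass the test over all 14 at 50 kb. It was far smaller with peaks at or above the median score, and kept its direction there and within 25 kb. The direction turned with lists of equal length and within 10 kb (-0.425 kb).

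The cover near MAT was uneven between its sides. To the right of MATALPHA1, galactose had 7.91 and 4.66 kb covered within 50 kb and dextrose had 2.02 kb. To the left, galactose had 7.25 and 8.4 kb and dextrose 7.34 kb. WT replicate 1 had 6.68 kb to the right, inside the galactose range. The share of all covered length that lay on chromosome III was 3.02 ± 0.2% in galactose (n = 2) and 3.05 ± 0.577% in the other 12 (exact permutation p = 0.967).

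**Figure D4:**
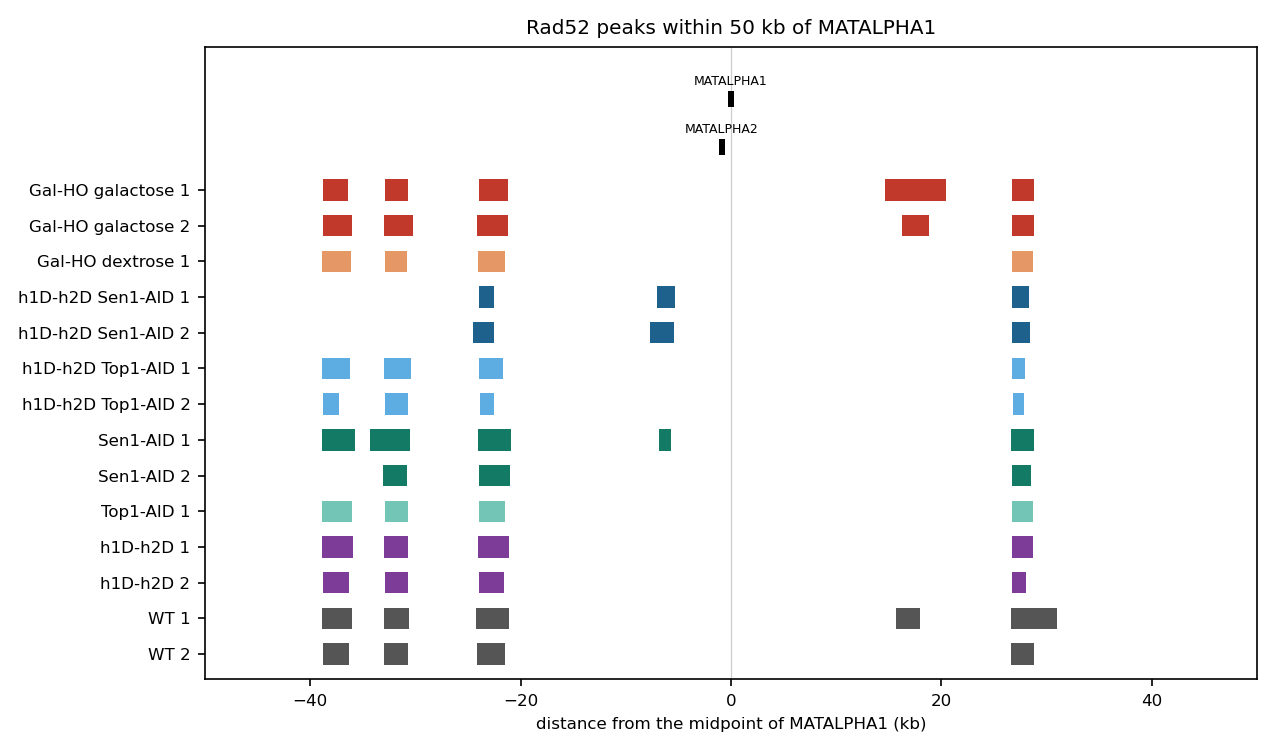
Rad52 peaks (bars) in each library within 50 kb of the midpoint of MATALPHA1, with distance in kb along the axis and the MAT genes in black on top. No peak lies over MAT in any library, both galactose libraries have a peak starting between 14 and 17 kb to the right, and peaks within 10 kb appear in 3 libraries with Sen1-AID.

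Among the auxin libraries, cover within 10 kb of MAT was seen where Sen1 was depleted. The peak spanned III 193693–195376 and III 193039–195259 in the h1D-h2D Sen1-AID libraries and III 193818–195015 in Sen1-AID replicate 1. It lay over the facing 3′ ends of RBK1, which encodes ribokinase, and PHO87, a phosphate transporter gene. Sen1-AID replicate 2 had none. So 3 of the 4 Sen1-depleted libraries had it and 0 of the other 10 did. A peak over the gene itself in at least 3 of these 4 and in none of the other 10 was found for 0.280% of all genes, or 18. RBK1 met that rule, which was written after the values were seen, and the MAT genes did not. The share of all genes with such a peak within 10 kb was not counted. The peak ended 5.07, 5.18 and 5.43 kb from MATALPHA1, at the 29.7th, 28.9th and 6.02nd percentiles.

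The combined mutants were compared with the other 7 auxin libraries at each locus. Their lists were the shortest of all, with 254 to 305 nuclear peaks, against 454 to 731 in the other 7. HO had no peak in either library of h1D-h2D Sen1-AID, where the nearest was 69 and 69.7 kb away. In h1D-h2D Top1-AID the SSB1 peak reached 16 and 24 bp into HO, or 0.909% and 1.36% of it. In the other 7 it covered between 13.5% and 44.5% of HO, with a median of 22.7%. By this measure 9.00% of all genes were lower in the combined mutants and 0.327% were higher at an unadjusted p under 0.05. Covered length within 10 kb of HO was 0.878 ± 1.02 kb (SD, n = 4) and 2.95 ± 0.29 kb (n = 7), a difference of -2.07 kb (exact permutation p = 0.00606, the smallest of 330 arrangements, adjusted 0.033 over all genes). HO was the single gene of the 7 past the adjusted threshold. Of all genes, 18.2% were past it in the same direction, so 1 of 7 is close to the background. At an unadjusted p under 0.05, 37.6% of all genes were lower and 1.01% were higher in the combined mutants. For the share of the gene itself the difference was -23.9 percentage points (exact permutation p = 0.00606, adjusted 0.197). The 4 libraries are 2 replicates of each strain, so the spread between strains is hardly measured.

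At the other loci the same comparison stayed within the spread. For MATALPHA1 the covered length within 10 kb was 0.976 ± 1.15 kb in the combined mutants (n = 4) and 0.171 ± 0.453 kb in the other 7 (exact permutation p = 0.218). For HMRA1 it was 1.89 ± 1.38 kb and 2.54 ± 1.53 kb (exact permutation p = 0.521). For HMLALPHA1 it was 0 kb in all 4 and 0.34 ± 0.581 kb in the other 7 (exact permutation p = 0.764). Within 25 kb of HMLALPHA1 the difference was -3.89 kb (exact permutation p = 0.00606), where 48.5% of all genes were lower at an unadjusted p under 0.05.

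The genes of factors that act on the cassettes were read from a list of 40 genes of silencing, HO control and break repair. Of these, 10 had a peak over them in at least 1 library, or 25% of the list, where 43.1% of all genes did. None had a peak in both galactose libraries and not in dextrose, where 1.24% of all genes did. None had the reverse, where 2.60% did. RAD52 itself had no peak in any library.

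Of the 10, SIR3, RAD55 and EXO1 had peaks in all 3 Gal-HO libraries. Each combined-mutant library had peaks over 8.85% to 12.9% of all genes, and each of the other 7 auxin libraries over 15.7% to 29.6%. SIR3, a silencing protein that spreads along HML and HMR, had a peak over it in both galactose libraries (8.27% and 11.4% of its length) and in dextrose (10.4%). It had one in 0 of 4 combined-mutant libraries and 5 of the other 7 auxin libraries. RAD55, a recombinational repair gene, had one in both galactose libraries (33.2% and 48.2%), in dextrose (46.6%), in 1 of 4 combined-mutant libraries and in 6 of 7 others. EXO1, a nuclease that resects broken ends, had one in both galactose libraries (1.42% and 14% of its length) and in dextrose (17.6%). It had one in 2 of 4 combined-mutant libraries and in 2 of the 7 others. YKU80, which encodes a subunit of the end-binding Ku complex, had one in none of the Gal-HO libraries, in none of the combined mutants and in 6 of the other 7. DNL4, the ligase of end joining, had one in the h1D-h2D Sen1-AID libraries alone, over 15.8% and 36.2% of its length. RAD9, a checkpoint adaptor, had one in 3 of 4 combined-mutant libraries and in no other. It was covered over 34.3% and 30.6% of its length in the h1D-h2D Sen1-AID libraries and 43.9% in h1D-h2D Top1-AID replicate 1. How many of all genes show the pattern of DNL4 or of RAD9 was not counted, so neither is a result about repair genes.

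The genes whose covered share followed each locus most closely over the 14 libraries were ranked by Pearson's r with the covered length within 10 kb. These values are a description, and libraries share strain and list length. For HMLALPHA1 they were KAP104, AIM32 and LEU3 (each r = 0.949), PET494 (0.946) and SSY5 (0.942), all with a peak over them in the galactose libraries alone. For MATALPHA1 they were RBK1 (0.994), MTR3 (0.982), POL4 and UTP7 (each 0.98) and PHO87 (0.978). RBK1 and PHO87 lie inside that window, so their values are part of it. For HMRA1 they were YPL264C (0.915), NAT2 (0.89), PDS5 (0.831), THI3 (0.816) and SPT5 (0.804). For HO they were ATO2 (0.914), ATP4 (0.889), COX4 (0.862), YJL225C (0.828) and CWC22 (0.822).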

How the data were processed

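Rad52 peaks from 14 libraries were analysed. The authors deposited 1 peak list per library, holding each peak's position, name and score; the lowest score of each list lies just above 50 and its scale is not given in the sources used here. Bowtie2, MACS2 and sacCer3 are named in the submitters' processing notes, without versions. Use of a control library is not stated there. Mitochondrial peaks (2 lists) were left out. Gene positions are 1-based, from the RefSeq R64 table, the assembly of sacCer3. No genome sequence was used.

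Covered length is the number of bases under a peak, in the gene or within 10 kb (50 kb for MAT) of its midpoint. Score percentiles are the share of a list's peaks at or below a score. Group means were compared by two-sided exact permutation tests (2 times the smaller tail) over 91 or 330 arrangements of libraries, run over all 6431 genes with Benjamini-Hochberg adjustment and a threshold of 0.05. The scan was tested on simulated data. Python 3.11.15, numpy 2.4.6, pandas 2.3.3 and matplotlib 3.10.9 were used.

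The genes, lists and tests were chosen with earlier results of these data known. Genes named are the 7 members, 3 neighbours on each side, genes under peaks near MAT in galactose and not dextrose, GAL1, GAL10, GAL7, the 5 most similar genes per locus, and up to 6 genes of the list of 40. SNR65, SUP61, RHB1, PMP1, RAD9 and the genes under Other observations were named after their values were seen. No group has the 4 samples that a test for outlying samples needs. No 2 peak lists were identical.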

Additional observations from a re-analysis of the deposited data

How the results depend on the processing

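Results were recomputed with a stricter score limit (the median score of all lists), equal list lengths, joined peaks, other windows, other sets of libraries, a replicate block and each library left out. Of 375 such values, 331 kept their direction and their side of the threshold or their size. Read depth is unknown and a peak list holds no signal below the caller's threshold, which limits what can be said at MAT. For the values that changed, the cause was not tested.

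Within 50 kb of MATALPHA1, galactose minus the other 12 became -1.16 kb with equal list lengths, -0.425 kb within 10 kb and 3.96 kb within 25 kb (exact permutation p = 0.044), and 5.15 kb with the replicate block (exact permutation p = 0.0417). Galactose minus dextrose there was 0.151 kb at the stricter score limit, -0.91 kb with equal list lengths and 0 kb within 10 kb. The share on chromosome III differed by 0.00727 percentage points at the stricter limit, 0.0569 with equal list lengths and 0.232 without the combined mutants.

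Of the 7 genes, 3 had an unadjusted p under 0.05 for galactose in a window of 10 kb. The smallest p without either galactose library is 0.154, so 0 can pass there. For the combined mutants the count was 3 within 25 kb, where 48.5% of all genes were lower, against 1 within 10 kb, where 37.6% were. Directions turned at HMRA1 for the combined mutants with equal list lengths (0.547 kb), at MATALPHA1 within 25 kb (3.96 kb for galactose, -0.558 kb for the combined mutants), and for the covered share of HMRA1 with joined peaks (31.1 percentage points).

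With libraries left out in turn, the share on chromosome III differed by -0.176 to 0.107 percentage points, and the genes with a peak in galactose and not dextrose numbered 123 (without Gal-HO galactose replicate 2) to 197 (without replicate 1), against 80. Those with a peak in galactose and none of the other 12 numbered 23 to 122, against 23, with 122 without Gal-HO dextrose and 57 without Gal-HO galactose replicate 1. The cassette genes and HO past the unadjusted threshold for galactose numbered 0 to 3.

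Replicate numbers were not treated as pairing the libraries. Deviations of same-numbered libraries from their group means correlated between -0.12 and 0.439 over 15 pairs of groups (median -0.00423), above 0.1 in 4. Beyond the MAT window above, the replicate block changed no call.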

Other observations

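Of the 21 genes covered over their whole length in both Gal-HO galactose libraries and in none of the other 12, 4 are the HML genes, HMRA2 and HO. The others include GAL1, GAL10 and GAL7 and more genes of galactose use, namely the permease gene GAL2 and the regulators GAL3 and GAL80. They also include FAR1, which encodes a cell-cycle inhibitor of the pheromone response, SST2, which encodes a desensitiser of that response, and AGA1, which encodes a subunit of agglutinin on mating cells. The rest are TEC1, MTH1, RTC3, ADH6, GCY1, RGL1, YCR085W and YNCB0008W. The groups above were made, and the genes named, after their values were seen, and no test was run on them. SSY5, LEU3, PET494, AIM32 and KAP104, the genes whose cover followed HMLALPHA1, lie beside FAR1, SST2, AGA1, GAL80 and GAL7 on their chromosomes.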
